A study of Sus scrofa with 40 samples.

Results

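Native endothelial cells of pigs fed a high cholesterol diet (CHL) were compared with native endothelial cells of control pigs, each cultured from the coronary artery of the heart. The comparison rests on 14 of the 40 arrays of the series, chosen by their titles and group labels: 6 CHL arrays and 8 control arrays, 1 per animal. All pigs were female farm pigs aged 4 months. The source of native cells was the left circumflex artery (LCX), whose lining had been left in place. In every heart, controls included, the lining of the left anterior descending artery (LAD) had been removed earlier, and the cells that regrew there are called regenerated. The cells were primary cultures, scraped off the lumen, grown in serum on collagen for 10 days and lysed before the first passage. The values therefore describe cultured cells, 10 days after they left the animal. The dose of cholesterol and the time of feeding are not given in the sources used here. A further diet group (FO, rich in polyunsaturated fatty acids, 6 native arrays) shared the fit and served as a second diet for comparison.

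The endothelium is the single cell layer that lines arteries. It releases nitric oxide and prostanoids that set vessel tone, carries adhesion receptors for leukocytes, and makes factors that start or dissolve clots. High plasma cholesterol is known to disturb these functions in coronary arteries, and cells with ample sterol normally turn down their own cholesterol synthesis. Endothelial cells in the artery rarely divide, whereas cells in culture enter the cell cycle until they touch each other.

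The control arrays carry labels of 2 styles. Controls 1 to 5 have MA numbers, and controls 6 to 8 have an animal number with the artery name, as all CHL and FO arrays do. What the styles stand for is not stated, so the controls are also shown apart as MA controls (n = 5) and artery-named controls (n = 3). Diet and label style cannot be told apart in the comparison with the MA controls. The first principal component of the 20 native arrays held 25.2% of the variance and placed 4 of the 5 MA controls, between -55.5 and -47.4, below every other array. MA control 2 lay at -6.2. Control 8 lay at the other end, at 72.2, beside CHL array 6 at 60.8.

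**Figure D1:**
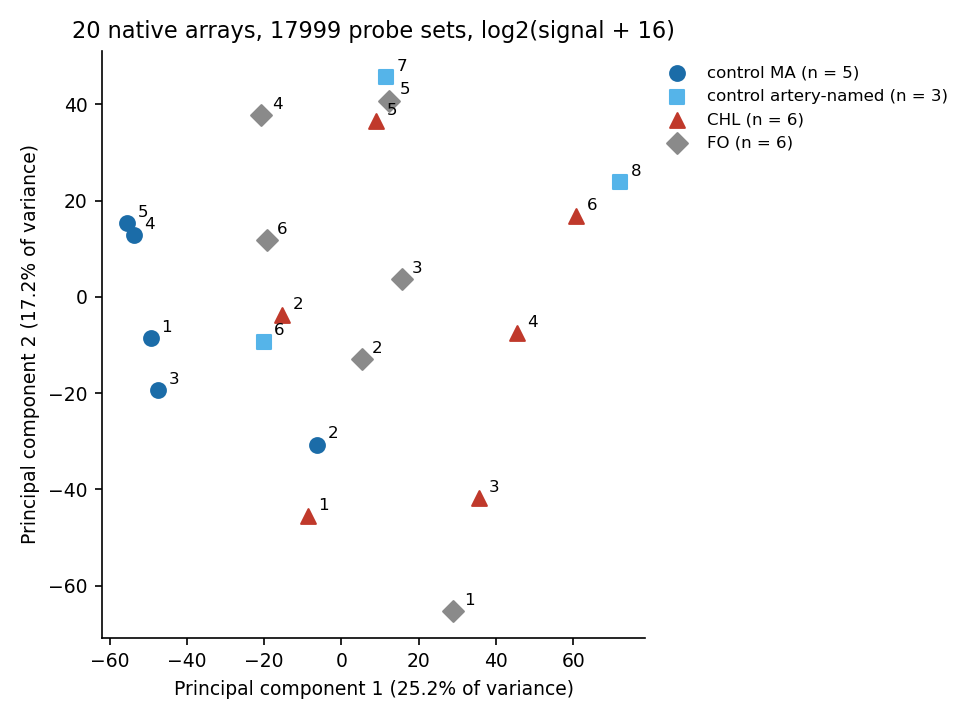
Principal components 1 and 2 (arbitrary units, percent of variance on the axes) of the 20 native arrays, numbered by replicate within a group. MA controls 1, 3, 4 and 5 sit at the left and control 8 at the far right, while CHL and FO arrays are spread between them.

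The 3'/5' signal ratio of the actin control transcript, which rises when RNA is degraded, was between 1.34 and 1.73 on the MA controls, between 1.52 and 3.39 on the artery-named controls and between 1.47 and 3.13 on the CHL arrays. The highest values were on control 8 (3.39) and CHL array 6 (3.13), the arrays at the far end of the first component. MA controls 1, 3, 4 and 5, at the low end of that component, had ratios between 1.39 and 1.73. Some other arrays did not follow this order. FO arrays 5 and 6, with ratios of 3.07 and 3.05, lay at 12.4 and -19.3 on that component. CHL array 4, with a ratio of 1.47, lay at 45.5. The part of RNA quality in the results was not tested. The endothelial markers PECAM1 and CDH5 were strong on all 14 arrays, while VWF was weak. These genes were picked after their values were seen. PECAM1, a junction protein of endothelial cells, was between 12.50 and 13.33 on the log2(signal + 16) scale on the controls and between 12.55 and 13.19 on the CHL arrays, and CDH5, the endothelial cadherin, was between 12.64 and 13.32 on all 14. VWF, the clotting carrier protein stored by endothelial cells, was weak in both groups, between 5.46 and 6.78, where 5.08 was the lowest mean level kept. Across 14 measured endothelial markers the median log2 difference was -0.09. Their summed signal ran from 31922 to 41642 on the controls and from 34855 to 39641 on the CHL arrays. Markers of other cells were also measured. The summed signal of 10 smooth muscle markers ran from 5910 to 48540 on the controls and from 13274 to 38518 on the CHL arrays. Its highest value was on control 8, above the sum of the endothelial markers there (38797). Sums of different marker sets do not give shares of cells. The summed signal of 7 leukocyte markers ran from 176 to 524 on the controls and from 250 to 3542 on the CHL arrays and included LYZ, which is described below and reached 11.61 on the log2(signal + 16) scale on a CHL array, while the other 6 did not exceed 7.67 there. In bulk RNA, fewer cells of a type and less RNA per cell cannot be told apart.

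Against all 8 controls, 0 of 17999 probe sets rose and 2 fell in CHL cells (0.0111%) after Benjamini-Hochberg adjustment in limma at a threshold of 0.05. No gene with a name was among them, and 2693 probe sets (15.0%) had an unadjusted p under 0.05, 1038 higher (5.77%) and 1655 lower (9.19%). Groups that did not overlap were found for 103 probe sets (0.572%), 38 higher and 65 lower in CHL cells. Both called probe sets are absent from the annotation used here, and they were singled out after their values were seen. Probe set Ssc.3097.2.A1_a_at ran from 9.72 to 10.58 in the controls (median 9.91) and from 8.64 to 8.95 in CHL cells (median 8.76). Its level was lower on every CHL array than on any control, the 3 artery-named ones included (9.85, 9.83 and 9.93). The log2 difference was -1.26 (SE 0.19, adjusted p = 0.0208), and in regenerated cells of the same animals it was -1.19 (SE 0.28). Probe set Ssc.22397.1.S1_at ran from 6.16 to 8.14 in the controls (median 6.72) and from 4.64 to 5.34 in CHL cells (median 5.05), with a log2 difference of -1.84 (SE 0.29, adjusted p = 0.0208). Neither passed when 1 of controls 2, 3 or 4 or any 1 CHL array was left out.

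The count depended on which controls were used. Against the 3 artery-named controls 0 probe sets passed in limma, while 719 were higher (3.99%) and 803 lower (4.46%), or 8.46% in all, at an unadjusted p under 0.05. Groups did not overlap for 814 probe sets (4.52%) there. Against the 5 MA controls 225 rose and 574 fell (4.44%). The control styles themselves differed by 15 probe sets (0.0833%), 5 higher and 10 lower in the artery-named controls, while an unadjusted p under 0.05 was found for 3352 (18.6%). Leaving out control 8 alone gave 68 higher and 164 lower probe sets against the remaining 7 controls. The contrast of the control styles gave 251 higher and 314 lower without control 6, but 0 and 0 without any 1 of controls 1, 2, 3, 4, 7 and 8. Values are given below against all controls unless another group is named. Many are followed by the value against the artery-named controls, which carry the same label style as the CHL arrays.

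**Figure D2:**
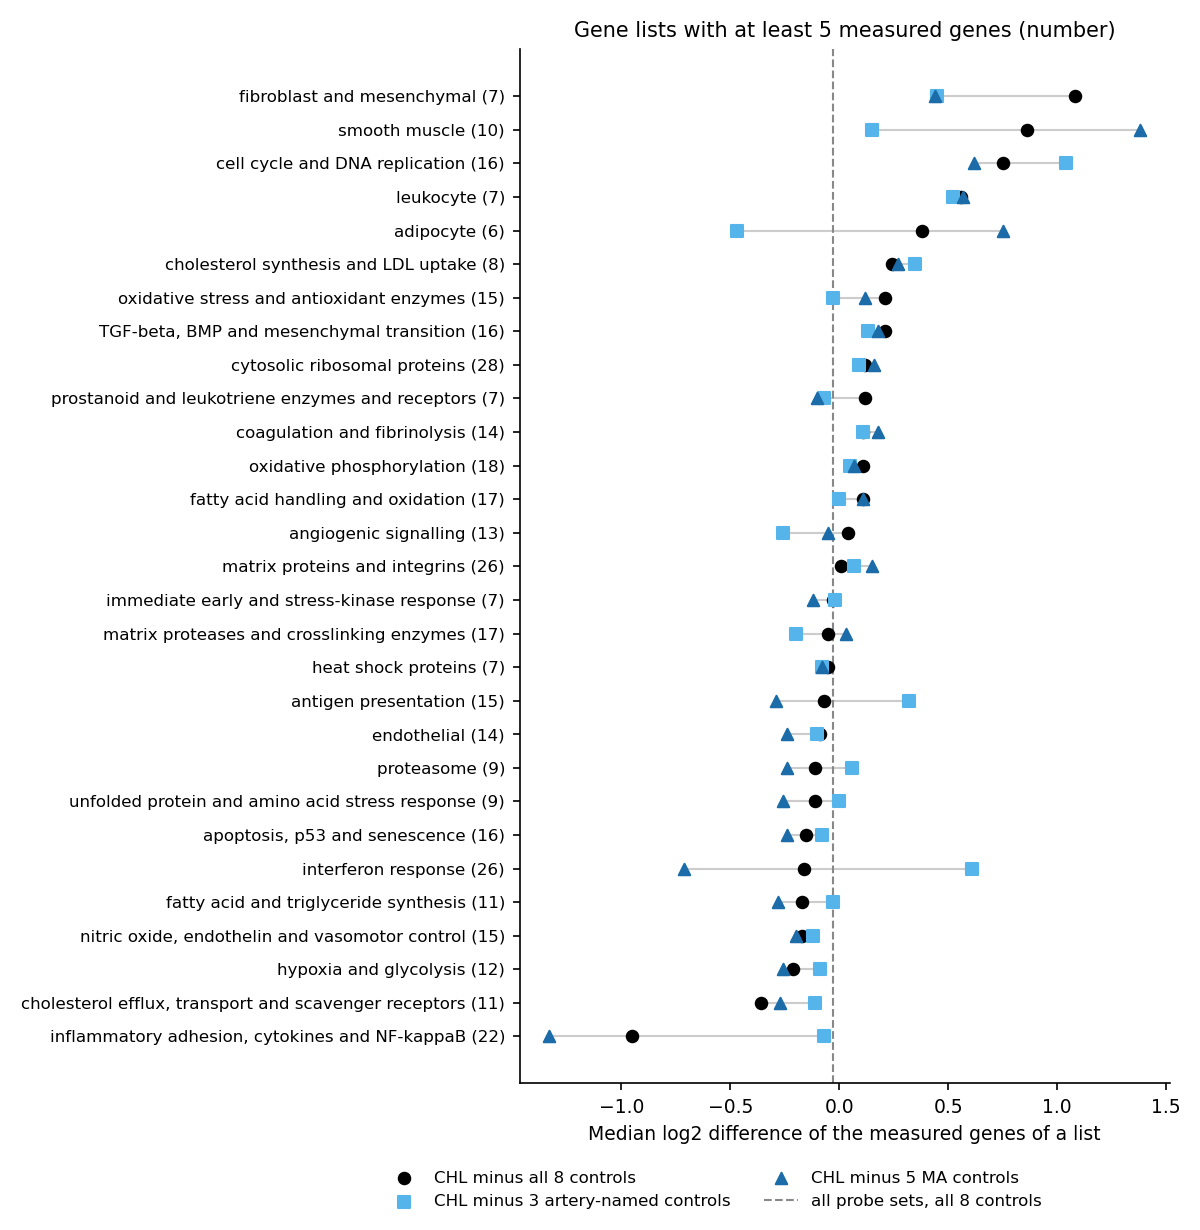
Median log2 difference of the measured genes in 29 gene lists, for CHL minus all 8 controls, minus the 3 artery-named controls and minus the 5 MA controls. The dashed line marks the median of all probe sets against all controls (-0.03). The cell cycle list lies above it in all 3 comparisons. Several lists change side with the control style, among them the interferon, adipocyte, antigen presentation and proteasome lists.

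Genes of cell division and DNA replication stood at higher levels in CHL cells in both comparisons. Of 16 measured genes on this list 14 were higher and 2 lower, with a median log2 difference of 0.75, where all probe sets had -0.03. 11 of the 16 had an unadjusted p under 0.05 upward and 0 downward, beside 5.77% and 9.19% of all probe sets. Measured against the artery-named controls, 12 were higher and 1 was lower at that p (3.99% and 4.46% of all probe sets), with a median of 1.04, and against the MA controls the median was 0.62. None passed after adjustment in any of the 3 comparisons. Leaving out 1 array at a time kept the median between 0.66 and 0.90 against all controls and between 0.85 and 1.26 against the artery-named ones. The list mean was between 9.83 and 10.31 on the CHL arrays and between 8.57 and 9.32 on the artery-named controls, without overlap. The FO arrays ran from 9.48 to 10.38, so they also lay above the artery-named controls and covered the CHL range. The separation was thus not particular to the CHL diet. The MA controls ran from 8.91 to 10.32 and covered the CHL range as well.

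Genes of mitosis are given first. UBE2C, the enzyme that marks mitotic cyclins for degradation, ran from 9.97 to 11.39 in the controls (median 10.68) and from 11.23 to 11.98 in CHL cells (median 11.62). On the artery-named controls it was 10.80, 9.97 and 10.63, and 5 of 6 CHL arrays lay above every control. Its log2 difference was 0.92 (SE 0.23, adjusted p = 0.11), and 1.13 (SE 0.30) against the artery-named controls. BIRC5, or survivin, a protein of the chromosomal passenger complex that also blocks caspases, ran from 8.11 to 10.53 (median 9.29) in the controls and from 10.34 to 11.27 (median 10.67) in CHL cells. It was above all controls on 4 CHL arrays, with a log2 difference of 1.37 (SE 0.37, adjusted p = 0.121) and 1.85 (SE 0.46) against the artery-named controls. CCNB1, cyclin B1, which drives entry into mitosis, ran from 8.45 to 11.69 in the controls and from 11.10 to 11.96 in CHL cells. It was 9.19, 8.45 and 10.48 on the artery-named controls, below every CHL array, but only 1 CHL array was above all controls. The difference was 1.34 (SE 0.41, adjusted p = 0.15). CCNB2, the second mitotic cyclin B, differed by 0.98 (SE 0.34), TOP2A, the topoisomerase that untangles replicated DNA, by 1.07 (SE 0.38) and PLK1, a mitotic kinase, by 0.93 (SE 0.33).

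Genes of DNA replication also had higher levels, without passing the adjustment. E2F1, a transcription factor that opens S phase, was at 8.29 (median) in the controls and 9.28 in CHL cells, with a log2 difference of 0.83 (SE 0.24, adjusted p = 0.139). RFC3, a subunit of the clamp loader at the replication fork, ran from 8.26 to 9.42 in the controls (median 8.86) and from 9.46 to 10.03 in CHL cells (median 9.82). The groups did not overlap. Its log2 difference was 0.89 (SE 0.17, adjusted p = 0.0944), and 0.86 (SE 0.23) against the artery-named controls. The second RFC3 probe set differed by 0.23. ASF1B, a histone chaperone of dividing cells, ran from 6.53 to 7.98 in the controls and from 8.00 to 8.57 in CHL cells, also without overlap, with a difference of 1.05 (SE 0.24, adjusted p = 0.0957). The exceptions on the list were MKI67, the Ki-67 antigen (-0.51, SE 0.38), and the replication helicase subunit MCM4 (-0.64, SE 0.48), both lower against all controls. MKI67 was at 0.31 and MCM4 at 0.57 against the artery-named controls.

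**Figure D3:**
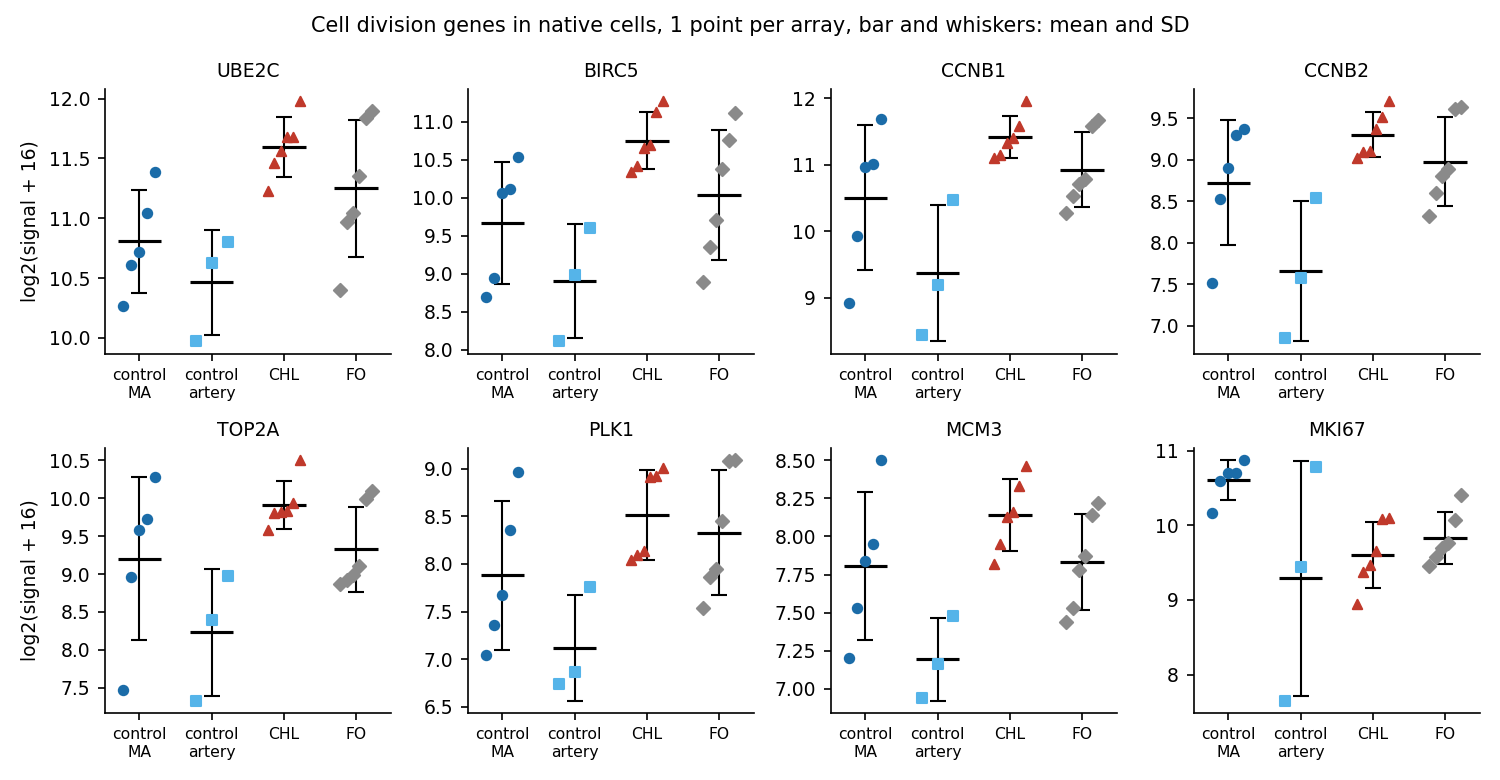
Levels on the log2(signal + 16) scale of 8 cell division genes on each native array of the MA controls, artery-named controls, CHL and FO groups, with the group mean and SD. CCNB1 on the CHL arrays lies between 11.10 and 11.96, above the 3 artery-named controls, while MA controls reach 11.69, and MKI67 does not follow the other genes.

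A further 20 cell division probe sets have no symbol in the deposited tables and are described there by their likeness to a human protein. They were chosen by these descriptions after the values of the list above were known and are given as a description. In CHL cells 18 were higher and 2 lower, with a median log2 difference of 0.54, and 0.76 against the artery-named controls. The probe set like KIF23, a kinesin of cell separation, differed by 1.14 (SE 0.38), that like the spindle checkpoint kinase BUB1B by 1.15 (SE 0.44) and that like MAD2L1, another checkpoint protein, by 0.56 (SE 0.20). The one like CCND1, the cyclin of the early G1 phase, differed by 0.09 (SE 0.25).

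Enzymes of cholesterol synthesis were higher rather than lower in CHL cells, though none passed against all controls. Of 30 listed genes of synthesis and LDL uptake 8 were measured, and 6 of these were higher. Of the 8, 4 were higher at an unadjusted p under 0.05 and 0 were lower at that p, beside 5.77% and 9.19% of all probe sets. The median was 0.24, and 0.35 against the artery-named controls, where 0 had such a p in either direction. Against the MA controls 1 of the 8 rose and 1 fell after adjustment, beside 4.44% of all probe sets in either direction. FDPS, which makes farnesyl diphosphate, ran from 10.57 to 11.43 in the controls (median 10.86) and from 11.32 to 12.02 in CHL cells (median 11.65), where 4 arrays were above every control. Its log2 difference was 0.75 (SE 0.19, adjusted p = 0.111). It rose against the MA controls (0.92, adjusted p = 0.019), and was at 0.47 (SE 0.24) against the artery-named ones. MVK, mevalonate kinase, differed by 0.44 (SE 0.15), ACAT2, which joins the first acetyl units, by 0.50 (SE 0.22) and MSMO1, a sterol methyl oxidase, by 0.37 (SE 0.17). Their differences from the artery-named controls were 0.34 (SE 0.20), 0.37 (SE 0.29) and 0.29 (SE 0.22). The other MSMO1 probe set was at -0.42, the opposite direction. INSIG1, which holds back sterol synthesis when sterol is ample, was at 0.12 (SE 0.26). A further 9 probe sets of sterol handling, 1 for each human protein they resemble, have no symbol and were chosen by their target descriptions, as a description only. Of these 5 were higher and 4 lower, with a median of 0.02, and 0 had an unadjusted p under 0.05 upward and 2 downward. Those 2 were the probe set like LRP6, a relative of the LDL receptor that serves Wnt signalling (-0.89, SE 0.24, and -0.63, SE 0.31 against the artery-named controls), and that like ABCA3, a lipid transporter (-0.56, SE 0.23, and -0.71, SE 0.30). The one like LRP6 fell against the MA controls (-1.05, adjusted p = 0.0306). The one like FDPS was at 0.11 (SE 0.19).

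Of 11 genes of cholesterol efflux, transport and scavenger uptake 3 were higher and 8 lower, with a median of -0.36, and none had an unadjusted p under 0.05. ABCA1, the exporter of cholesterol to apolipoproteins, ran from 6.52 to 9.23 in the controls and from 6.66 to 8.62 in CHL cells, a difference of -0.37 (SE 0.44), and -0.65 (SE 0.58) against the artery-named controls. OLR1, the endothelial receptor for oxidised LDL, was between 6.74 and 10.66 on the MA controls, at 8.42, 4.19 and 5.26 on the artery-named controls and between 4.47 and 9.38 in CHL cells. The groups overlapped over most of their range, and the difference was -0.36 (SE 0.93). Its sign was the opposite against the artery-named controls, at 1.66 (SE 1.04), and with 1 array left out the value against all controls ran from -0.90 to 0.27.

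Synthesis of fatty acids and triglycerides showed lower levels of 9 of 11 measured genes, 3 of them with an unadjusted p under 0.05, and 1 higher gene at that p (9.19% and 5.77% of all probe sets). The median was -0.17, and -0.03 against the artery-named controls, where all probe sets against all controls had -0.03. The list mean ran from 7.64 to 7.88 in CHL cells, from 8.03 to 8.36 on the MA controls and from 7.87 to 7.92 on the artery-named ones. FASN, fatty acid synthase, ran from 6.37 to 7.97 in the controls (median 7.12) and from 5.06 to 6.71 in CHL cells (median 5.76). The 3 artery-named controls (6.41, 6.37 and 6.73) lay below all MA controls, and 4 CHL arrays lay below every control. The log2 difference was -1.26 (SE 0.31, adjusted p = 0.109), and FASN fell against the MA controls (-1.63, adjusted p = 0.0103). Its difference from the artery-named controls was -0.63 (SE 0.36). ACSL4, which activates long-chain fatty acids, fell against the MA controls as well (-1.26, adjusted p = 0.019), was at -0.96 (SE 0.28) against all controls and at -0.44 (SE 0.33) against the artery-named ones. GPAM, the first enzyme of glycerolipid synthesis, was at -0.64 (SE 0.19), and SCD, the desaturase that makes oleate, was higher at 0.60 (SE 0.24). They were at -0.54 (SE 0.25) and 0.37 (SE 0.31) against the artery-named controls. Among genes of fatty acid handling, FABP5, a fatty acid carrier of capillary and epidermal cells, ran from 7.70 to 9.86 in the controls and from 9.26 to 11.76 in CHL cells. Its difference was 1.63 (SE 0.52, adjusted p = 0.159), and 1.03 (SE 0.66) against the artery-named controls, and it rose against the MA controls (1.99, adjusted p = 0.048). The related carrier FABP4 was at 0.43 (SE 0.49), and CPT1B, which brings fatty acids into mitochondria, at -0.69 (SE 0.21). With the artery-named controls alone FABP4 was at -0.63 (SE 0.55) and CPT1B at -0.38 (SE 0.25).

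Vascular growth factor signalling held the endothelial gene with the smallest p. FLT1, a receptor for vascular endothelial growth factor, ran from 6.32 to 8.24 in the controls (median 7.68) and from 5.71 to 6.84 in CHL cells (median 6.24). It was 7.55, 7.11 and 6.32 on the artery-named controls, so that control 8 lay within the CHL range, and 4 CHL arrays lay below every control. The log2 difference was -1.25 (SE 0.26, adjusted p = 0.0944), the second FLT1 probe set gave -1.60, and FLT1 fell against the MA controls (-1.55, adjusted p = 0.00641). Against the artery-named controls it was at -0.75 (SE 0.30). VEGFA, its ligand, was at -0.85 (SE 0.30) against all controls and at -0.85 (SE 0.40) against the artery-named ones. ANGPTL2, a secreted angiopoietin relative, was 8.87, 7.75 and 8.44 on the artery-named controls and between 6.29 and 7.60 in CHL cells, without overlap, a difference of -1.36 (SE 0.35). Against all controls it was at -0.73 (SE 0.31). ID2, an inhibitor of differentiation factors, was at 0.70 (SE 0.23). Over the 13 measured genes of angiogenic signalling 7 were higher and 6 lower, with a median of 0.04.

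Genes of vessel tone showed small differences. Of 15 genes of nitric oxide, endothelin and vasomotor control 4 were higher and 11 lower, with a median of -0.17, and 1 had an unadjusted p under 0.05, RAMP2, a partner of adrenomedullin and calcitonin gene-related receptors (0.58, SE 0.27). NOS3, the endothelial nitric oxide synthase, ran from 8.04 to 10.51 in the controls and from 9.25 to 10.42 in CHL cells, with control 7 at the lowest value, and differed by 0.01 (SE 0.30), and by 0.53 (SE 0.36) from the artery-named controls. EDN1, which encodes endothelin 1, differed by 0.22 (SE 0.22) and CAV1, the coat protein of caveolae, by -0.25 (SE 0.19). Among 7 prostanoid and leukotriene genes, PTGS1, the constitutive cyclooxygenase, was between 8.50 and 9.26 on the MA controls and 8.69, 6.77 and 6.77 on the artery-named ones. In CHL cells it ran from 6.35 to 8.73. The difference was -1.09 (SE 0.51) against all controls and -0.11 (SE 0.60) against the artery-named controls. ALOX5AP, the activator of 5-lipoxygenase, rose against the MA controls (1.93, adjusted p = 0.012), was at 1.20 (SE 0.45) against all controls and at -0.03 (SE 0.44) against the artery-named ones. PTGS2, the inducible cyclooxygenase, was at -0.63 (SE 0.44) and the thromboxane synthase TBXAS1 at 0.21 (SE 0.25).

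A dissolver and a starter of clots had lower levels in CHL cells in both comparisons, without passing the adjustment. PLAT, tissue plasminogen activator, ran from 10.72 to 12.15 in the controls (median 11.62) and from 10.54 to 11.18 in CHL cells (median 10.62). The artery-named controls (11.82, 12.15 and 11.83) lay above every CHL array, and the MA controls overlapped with them. The difference was -0.74 (SE 0.27, adjusted p = 0.201), -1.17 (SE 0.33) against the artery-named controls, and -0.88 (SE 0.22) in regenerated cells. F3, tissue factor, the trigger of coagulation, ran from 7.57 to 12.75 in the controls and from 5.95 to 10.69 in CHL cells, and differed by -2.75 (SE 1.08, adjusted p = 0.241), and by -2.77 (SE 1.45) from the artery-named controls. Its spread within each group spanned several log2 units. A2M, a protease inhibitor, was higher (0.85, SE 0.26), as was FGL2, a membrane prothrombinase of the fibrinogen family (0.86, SE 0.38). THBD, or thrombomodulin, was at 0.80 (SE 0.46). Of the 14 genes of this list 8 were higher and 6 lower, with a median of 0.11.

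Inflammatory genes had lower levels in CHL cells against all controls, while their median against the artery-named controls lay near that of all probe sets. Of 22 measured adhesion, cytokine and NF-kappaB genes 5 were higher and 17 lower, with a median of -0.95, and 4 had an unadjusted p under 0.05 downward, beside 9.19% of all probe sets. With 1 array left out that count ran from 2 to 10 and the median from -1.27 to -0.67. The median against the artery-named controls was -0.07, but it was -0.93 without control 8, whose list mean (9.29) lay below every CHL array. IL18, an interleukin that induces interferon-gamma, differed in both comparisons. It ran from 7.14 to 10.19 in the controls (median 8.91) and from 6.43 to 7.28 in CHL cells (median 6.85). The artery-named controls, at 9.36, 9.64 and 9.0, lay above all CHL arrays, and MA controls reached down to 7.14. The log2 difference was -2.01 (SE 0.47, adjusted p = 0.102), and -2.46 (SE 0.60) against the artery-named controls. In regenerated cells it was -1.84 (SE 0.52). CXCL12, a chemokine that guides leukocytes and progenitor cells, was at -1.78 (SE 0.69), and -2.01 (SE 0.92) against the artery-named controls. CSF2, a growth factor of granulocytes and macrophages, ran from 7.22 to 14.08 in the controls and from 5.91 to 12.61 in CHL cells, a difference of -2.86 (SE 1.33), and -2.36 (SE 1.76) against the artery-named controls. TLR4, the receptor for bacterial lipopolysaccharide, fell against the MA controls (-0.96, adjusted p = 0.0331), was at -0.63 (SE 0.26) against all controls and at -0.08 (SE 0.29) against the artery-named ones.

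The adhesion receptors for leukocytes did not pass. SELE, or E-selectin, ran from 12.87 to 13.65 on controls 1 to 7, lay at 10 on control 8 and ran from 10.29 to 13.58 in CHL cells, a difference of -0.84 (SE 0.74), and -0.06 (SE 0.95) against the artery-named controls. VCAM1 differed by 0.11 (SE 0.15) and ICAM1 by 0.01 (SE 0.26). The interferon response list held 26 measured genes, 8 higher and 18 lower, with a median of -0.16, and 0 with an unadjusted p under 0.05. Of the 26, 25 were higher than in the artery-named controls, with a median of 0.61. Control 8 had a list mean of 8.56, below the other 7 controls (10.53 to 12.12), and CHL arrays ran from 9.44 to 12.08. Without control 8 the median against the artery-named controls was -0.13.

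**Figure D4:**
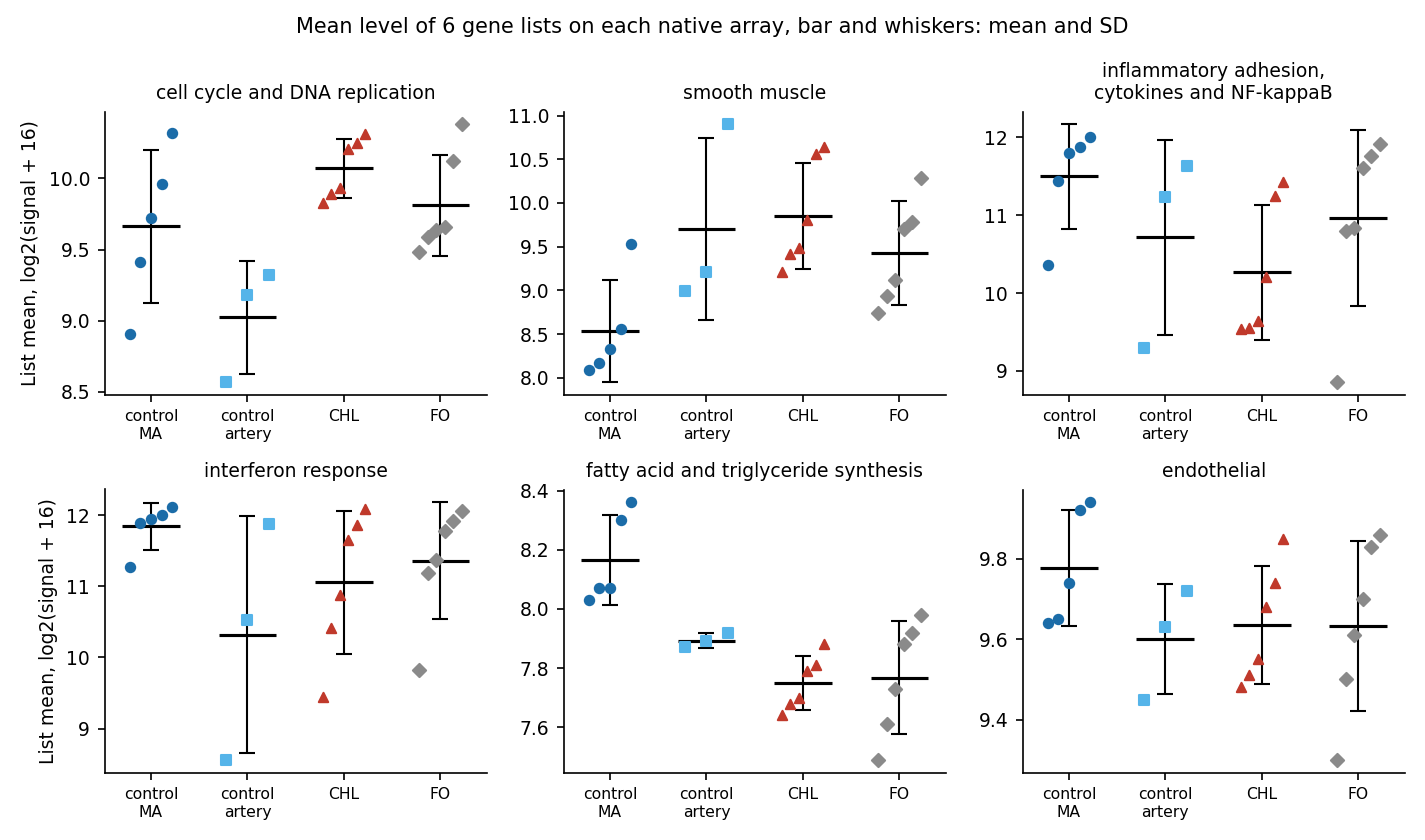
Mean level of 6 gene lists on each native array, in log2(signal + 16), with group means and SDs. The cell cycle list is higher on all CHL and all FO arrays than on the 3 artery-named controls. The smooth muscle list runs from 8.09 to 9.53 on the MA controls and from 9.21 to 10.64 on the CHL arrays. Control 8 is the lowest control in the inflammatory and interferon lists.

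All 10 measured smooth muscle markers were higher in CHL cells against all controls, with a median of 0.86, 4 of them at an unadjusted p under 0.05 (5.77% of all probe sets). With 1 array left out that count ran from 2 to 6. The median was 1.38 against the MA controls and 0.15, with 1 such gene, against the artery-named ones. The latter median was 0.66 without control 8 and -0.25 without control 7. The list mean was 9.21 and 8.99 on controls 6 and 7, at or below every CHL array, and 10.9 on control 8, above them all. ACTA2, smooth muscle alpha-actin, ran from 5.95 to 9.45 on the MA controls, was 8.61, 6.39 and 13.49 on the artery-named controls and ran from 8.26 to 12.80 in CHL cells. The difference was 2.25 (SE 1.02, adjusted p = 0.307), and 0.96 (SE 1.29) against the artery-named controls. TAGLN, which binds actin in smooth muscle cells, rose against the MA controls (1.76, adjusted p = 0.0383), was at 1.14 (SE 0.49) against all controls and at 0.12 (SE 0.55) against the artery-named ones. DES, or desmin, was higher in both, at 0.86 (SE 0.27) and 0.98 (SE 0.35), with levels between 4.44 and 6.11, close to the lowest level kept. Of the 26 matrix proteins and integrins 14 were higher and 12 lower, with a median of 0.01. At an unadjusted p under 0.05, 5 were higher and 2 lower against all controls (5.77% and 9.19% of all probe sets). At that p, 0 were higher and 4 lower against the artery-named ones (3.99% and 4.46% of all probe sets). After adjustment 4 rose and 0 fell against the MA controls, beside 4.44% of all probe sets in either direction. MGP, an inhibitor of calcification, rose against the MA controls (2.65, adjusted p = 0.047), as did SDC2, a heparan sulfate proteoglycan (2.47, adjusted p = 0.0103). These were at 1.99 (SE 0.71) and 1.59 (SE 0.55) against all controls, and at 0.89 (SE 0.87) and 0.11 (SE 0.54) against the artery-named ones. The part of contractile cells in these levels was not tested.

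LYZ, lysozyme, had the largest higher value among the genes with the smallest p. It ran from 4.75 to 7.78 in the controls (median 6.75) and from 7.44 to 11.61 in CHL cells (median 8.23). The artery-named controls lay at 6.85, 4.75 and 6.65, below every CHL array. The log2 difference was 2.5 (SE 0.59, adjusted p = 0.102), and 2.72 (SE 0.78) against the artery-named controls (a second probe set gave 0.62). LYZ rose against the MA controls (2.37, adjusted p = 0.0482). LYZ is a secreted antibacterial enzyme of macrophages, neutrophils and some epithelia. Of 7 measured leukocyte markers 4 were higher and 3 lower. TYROBP, a signalling adaptor of myeloid cells, was at 0.81 (SE 0.33), LCP1, the leukocyte plastin, at 0.56 (SE 0.21) and CD14, the monocyte co-receptor for lipopolysaccharide, at -0.79 (SE 0.37). TYROBP did not exceed 6.72 on any CHL array and LCP1 did not exceed 5.78. The part of leukocytes in the LYZ level was not tested.

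Among the remaining genes with the smallest p, none passed and all lay in the same direction against the artery-named controls. RNF185, a ubiquitin ligase, ran from 7.80 to 8.66 in the controls and from 7.26 to 7.66 in CHL cells, without overlap, and differed by -0.85 (SE 0.16, adjusted p = 0.0944), and by -0.81 (SE 0.22) against the artery-named controls. PCNX1, a membrane protein of the pecanex family, ran from 7.54 to 10.25 in the controls and from 6.36 to 7.53 in CHL cells, a difference of -1.95 (SE 0.45, adjusted p = 0.098). IPO4, an importin of nuclear transport, was at -1.84 (SE 0.41), SENP6, a protease that removes SUMO, at -1.25 (SE 0.28), NCK2, an adaptor of receptor kinases, at -1.07 (SE 0.28) and MYO7A, an unconventional myosin, at -0.80 (SE 0.18). LOC100157538, titled as similar to an erb-b2 gene, was at -0.58 (SE 0.15). THRA, the thyroid hormone receptor alpha, ran from 5.91 to 7.25 in the controls and from 7.10 to 7.90 in CHL cells. Its difference was 0.95 (SE 0.18, adjusted p = 0.0944), and 1.10 (SE 0.24) against the artery-named controls, and 5 CHL arrays lay above every control. SMARCA2, an ATPase of chromatin remodelling, was at 0.80 (SE 0.20) and heparan sulfate (glucosamine) 3-O-sulfotransferase 1 at 1.03 (SE 0.25). The last named, heterogeneous nuclear ribonucleoprotein A3, was at 1.61 (SE 0.41) in native and 2.10 (SE 0.49) in regenerated cells, and serine hydrolase-like was at 1.0 (SE 0.23).

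**Figure D5:**
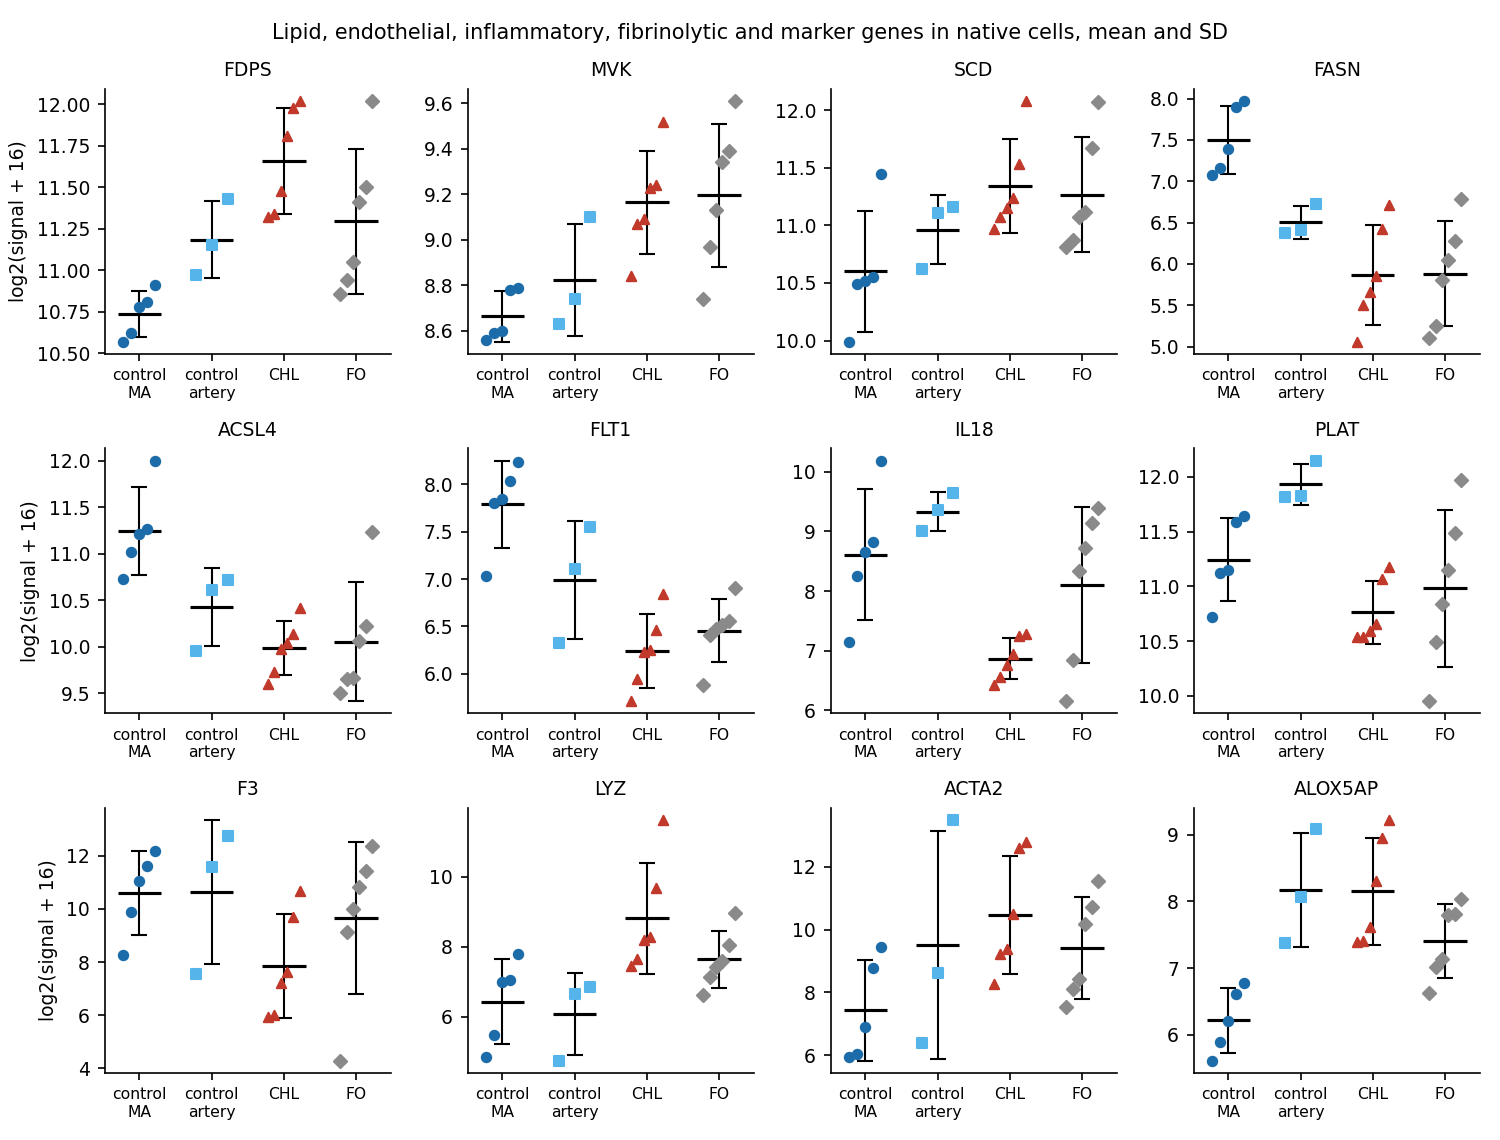
Levels on the log2(signal + 16) scale of 12 genes on each native array, with the group mean and SD. PLAT and IL18 are lower on all CHL arrays than on the 3 artery-named controls, LYZ is higher, and the levels of FASN, ACSL4 and ALOX5AP do not overlap between the control styles.

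Of 7 fibroblast and mesenchymal markers 6 were higher, with a median of 1.08, which ran from 0.54 to 1.19 with 1 array left out. The median was 0.45 against the artery-named and 0.44 against the MA controls. S100A4, a calcium-binding protein of motile cells, rose against the MA controls (2.43, adjusted p = 0.019), was at 1.67 (SE 0.57) against all controls and at 0.40 (SE 0.63) against the artery-named ones. Of 6 adipocyte markers 4 were higher, with a median of 0.38, and -0.47 against the artery-named controls. Lists of cell stress, metabolism and ribosomes had medians between -0.21 and 0.21 against all controls. Of 16 genes of apoptosis 6 were higher and 10 lower. Of 12 genes of hypoxia and glycolysis 2 were higher and 10 lower, with a median of -0.21. Among 15 antioxidant genes 9 were higher and 6 lower, and SOD2, the mitochondrial superoxide dismutase, was at -0.52 (SE 0.54). Of 28 ribosomal protein genes 21 were higher and 7 lower, with a median of 0.12.

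The diets were then set side by side, since both were fed to animals with artery-named labels. No probe set passed between CHL and FO native cells in limma, and 245 (1.36%) were below 0.05 before adjustment, 124 higher and 121 lower. The cell cycle list had a median of 0.27 for CHL minus FO. FASN was at -0.01 (SE 0.34), FLT1 at -0.22 (SE 0.27), PLAT at -0.22 (SE 0.29) and RFC3 at 0.36 (SE 0.18). IL18 was at -1.23 (SE 0.50) and THRA at 0.49 (SE 0.20). FO against the same 8 controls gave 0 probe sets in limma and 1636 (9.09%) below 0.05 before adjustment. These comparisons share control or CHL arrays and are not independent of the one above. In regenerated cells, 0 probe sets passed between CHL and control in limma, and 1648 (9.16%) were below 0.05 before adjustment. There the cell cycle list had a median of 0.32, the inflammatory list 0.68 and the smooth muscle list -0.21. The 20 cell division probe sets without a symbol had a median of 0.13 there. Those like KIF23, BUB1B, MAD2L1 and CCND1 were at 0.21, 0.10, 0.26 and -0.38. Regenerated values of single genes are given above for a few genes only and do not stand for the rest.

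The authors' deposited tables hold their own values for native CHL against control cells. The authors' deposited table of changed genes has a column for this comparison, with 744 probe sets higher and 773 lower in CHL cells. At 2-fold there were 134 and 187. The table also holds small differences, such as PPARG at 1.08-fold lower, and the rule that chose its members is not stated here. Of the 1503 probe sets of that table that were tested here, 1340 (89.2%) had the same direction in the present fit. The 2 called probe sets could not be among these 1503, since both are absent from the annotation, which was drawn from the authors' tables. These lists were chosen on the same arrays. In the same authors' deposited table FLT1 was 2.46-fold lower and ACTA2 6.19-fold higher. Other tables of the authors gave 2.27 and 2.83-fold lower for FLT1, and 3.9 and 5.02-fold higher for ACTA2. The authors' deposited table of 4004 probe sets gives LYZ as 8.49-fold higher in CHL cells.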

How the data were processed

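Per the labels' protocols, total RNA of each culture was run on the Affymetrix array for pig. The deposited intensity of each probe set is linear, and MAS5 is named in the submitters' processing notes, with each array scaled on its own and no MAS5 version given in the sources used here. Their tables of comparisons, used for gene names and for the authors' values, hold a fold ratio or a log2 ratio per the file headers. No column belonged to another series.

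Values were taken as log2(signal + 16), so fold changes of dim probe sets are understated. Of 24123 probe sets, 124 Affymetrix controls were removed, and a mean over the 40 arrays above the 25th percentile was required, so that 17999 were tested. A limma 3.58.1 fit (R 4.3.3, lmFit and eBayes) of the 20 native arrays by diet gave CHL minus control, unpaired. A second fit split the controls by label style. Another fit used the 20 regenerated arrays. Tests were two-sided and adjusted by Benjamini-Hochberg over all probe sets. The script was tested on simulated data. MAS5 leaves more spread at low signal, and the number of arrays limits the precision. Animals are separate samples, so p-values measure the spread between animals.

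Names came from the Gene Symbol or Gene Title of the deposited tables, updated through a RefSeq pig gene table (2761 tested probe sets with 1 symbol, 98 with a title only, 50 with several symbols and not named). The titles of 1 deposited file disagreed with the others and were not used. Each gene is given by its probe set of highest mean level. The genes named are the 10 with the smallest p in each direction, up to 4 per list (here those with an unadjusted p under 0.05), a set list of genes of vessels and lipids, and at most 2 unnamed probe sets per direction. Others (CCNB2, TOP2A, PLK1, MKI67, MCM4, INSIG1, PECAM1, CDH5 and VWF) were chosen after their values were seen. SCARB1, PTGIS and HMOX1 had no named probe set here and KLF2 was below the filter. A few genes that these rules would name are not reported here. The members and lists were chosen with earlier results of these data known. Native replicate numbers of the diets do not pair animals: correlations of same-numbered arrays' deviations ran from -0.16 to 0.26. Alternatives were other pseudocounts, filters, normalizations, array weights, blocks and sets of arrays. Drawing used matplotlib 3.10.9.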

Additional observations from a re-analysis of the deposited data

Results flagged for a closer look

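Single arrays lay far from the rest of their group in 11 of 240 groups of values, or 4.58%, and chance alone gives about 1 in 20. Values are log2(signal + 16) levels. Control 8 was the highest control for ACTA2, smooth muscle alpha-actin, at 13.49, with the other controls between 5.95 and 9.45. It was the lowest for SELE at 10, against 12.87 to 13.65. Its interferon response list mean of 8.56 lay below 10.53 to 12.12, and its proteasome list mean of 11.48 below 11.79 to 12.07. Control 7 was the lowest control for NOS3 at 8.04 (others 9.70 to 10.51) and the highest for MVK at 9.1 (others 8.56 to 8.79). Control 2 was the lowest for TIMP1, an inhibitor of matrix proteases, at 12.48 (others 13.49 to 14.29).

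Among the CHL arrays, array 6 was the lowest for DES at 4.89 (others 5.78 to 6.11) and for CD14 at 4.76 (others 5.6 to 5.95). Array 1 was the highest for TLR4 at 9.06 (others 8.17 to 8.43). Array 3 had the lowest list mean of prostanoid and leukotriene genes, at 8.69 (others 9.12 to 9.27).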

How the results depend on the processing

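Against all controls, limma called 0 rising and 2 falling probe sets. The falling count was 1 with a pseudocount of 64 or a filter at the 50th percentile, and the rising count was 1 after quantile normalization or median centring. With 28 arrays and the animal as a random block the counts were 2 and 6, and with array weights 165 and 401. With label style as a block, or the artery-named controls alone, 0 fell. The replicate numbers do not pair the animals, and the replicate block gave 163 and 402. No CHL array has the number of control 7 or control 8, so these controls did not enter the difference in that block. Leaving out 1 array gave 0 to 68 rising and 0 to 164 falling, both highest without control 8. Against the artery-named controls these ranges were 0 to 2 and 0 to 1. Against the MA controls quantile normalization gave 349 rising, and leaving out 1 array gave 33 to 348 and 124 to 757, lowest without control 4. For the control styles the counts were 0 and 0 with a pseudocount of 1, 28 and 50 with 64, 8 rising with no filter, 56 and 48 after quantile normalization, and 0 to 251 and 0 to 314 with 1 array left out. The alternatives for the MA controls, and part of the left-out arrays for the artery-named controls and the control styles, were chosen after seeing the data.

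Ssc.3097.2.A1_a_at was at -1.10 with label style as a block (adjusted p = 0.327) and between -1.31 and -1.19 with 1 array left out. Ssc.22397.1.S1_at was at -1.05 with a pseudocount of 64, at -1.37 with label style as a block (adjusted p = 0.327), and between -1.94 and -1.66 with 1 array left out. Of 83 named genes 74 kept their direction under every setting run and 9 did not. The genes chosen after their values were seen were not among the 83. Of those, MKI67 and MCM4 also changed sign with label style as a block. With label style as a block, ALOX5AP was at -0.03, SOD2 at 0.02, FABP4 at -0.63, TBXAS1 at -0.07, OLR1 at 1.66 and ICAM1 at -0.36. Other probe sets gave -0.42 for MSMO1 and -0.35 for ICAM1, and quantile normalization gave -0.02 for ICAM1. PPARG, a fat cell transcription factor, was at -0.02 against all controls, 0.03 after quantile normalization, 0.05 after median centring, 0.21 with array weights and 0.20 with the replicate block. NOS3 was at -0.05 with array weights and -0.23 with the replicate block. With 1 array left out OLR1 ran from -0.90 to 0.27, ICAM1 from -0.10 to 0.13, PPARG from -0.19 to 0.27 and NOS3 from -0.23 to 0.12.

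List medians moved as follows. The filter at the 50th percentile gave 0.40 for cholesterol synthesis, 2.5 for leukocyte, 1.15 for adipocyte and 0.37 for epithelial genes, over fewer genes. The leukocyte, adipocyte and epithelial values equal those of the single genes LYZ, CFD and OCLN. They need not describe the whole lists. Label style as a block gave -0.07 for prostanoid, -0.03 for antioxidant, -0.26 for angiogenic, 0.45 for fibroblast, -0.47 for adipocyte and -0.71 for cardiomyocyte genes. Array weights gave 0.00 for prostanoid and 0.64 for fibroblast genes, the replicate block 0.01 and 0.30, and a pseudocount of 64 gave 0.59 for fibroblast genes. With 1 array left out the angiogenic median ran from -0.11 to 0.11 and the fibroblast median from 0.54 to 1.19. Except where the number of genes or arrays tested changed, the cause was not tested. Dim probe sets, near the filter level of 5.08, are limited by signal over background.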
